A study of Homo sapiens with 6 samples.

Results

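Aminoacyl-tRNA synthetases join each amino acid to its own tRNA and so supply the ribosome with charged tRNA. The cytosolic enzymes serve translation of nuclear-encoded mRNAs, and they fall into class I and class II, which differ in the fold of the catalytic domain. Several of them sit together in a cytosolic multisynthetase complex. In mammalian cells short of amino acids, the transcription factor ATF4 raises the mRNAs of many of these enzymes as part of the integrated stress response.

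The set described here holds 10 transcripts, 1 for each of the synthetase genes AARS1, GARS1, SARS1, IARS1, NARS1, WARS1, TARS1, MARS1, EPRS1 and YARS1. Their rows were picked out by Ensembl transcript ID alone, and all 10 were found among the 65527 rows of the deposited table. The list itself was drawn up with earlier results of these data known. The gene names come from the list that defined the set, because the table gives IDs only. No other row had the same 6 values as any of them, so each of the 10 is a profile of its own. Other transcripts of the same genes were not looked for, so each result below is for 1 transcript of its gene.

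HepG2, the line used, derives from a human liver tumour, and each total RNA sample was hybridised to 1 Affymetrix gene array. In the boric acid group, cells grown in low-glucose medium with 10% serum received boric acid at the half-maximal inhibitory concentration of 24 mM, and RNA was taken after 24 hours (3 arrays). The control group was untreated HepG2 cells (3 arrays). The labels name no vehicle and do not state that replicates were separate cultures. The spread behind each p-value is that between these samples and may be technical. HepG2 was the only line studied, and its hepatocyte markers were not checked here because no table used here pairs the IDs with genes.

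Values are log2 signals made by the authors with RMA, which puts all arrays on a common distribution, so every change is relative to the array as a whole. A difference of 1 on this scale is a 2-fold change. Array medians lay between 6.84 and 6.92. The array labelled boric acid 1 stood apart: over the tested rows it differed from boric acid arrays 2 and 3 by a median of 0.204 and 0.205, against 0.104 between those 2. Control array 1 differed from control arrays 2 and 3 by 0.149 and 0.164, against 0.122 between those 2. Results that depend on the arrays numbered 1 are therefore also given without them.

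All 10 transcripts passed the signal filter (a value above 6.89, the median of the table, on at least 3 arrays). A total of 33710 rows passed and were tested together with limma, a linear model that shares the estimate of spread across rows. A transcript was called changed at a Benjamini-Hochberg adjusted p below 0.05 over all rows tested.

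The fitted log2 fold changes of the 10 synthetase transcripts ranged from -0.82 to 0.19. AARS1, EPRS1 and YARS1 fell by 41.2% to 43.4% in boric acid, and the other 7 did not pass the test. Thus 3 of 10 were called lower, against 19.2% of all rows tested, and 0 of 10 were called higher, against 23.0%. In either direction the count was 3 of 10, against 42.2% of all rows. At an unadjusted p below 0.05, limma gave 4 lower, against 23.3% of all rows, and 0 higher, against 28.2%. No synthetase was called with a fitted change of 2-fold or more, while 3.01% of all rows were called at least 2-fold higher and 4.45% at least 2-fold lower. The 95% intervals of AARS1, EPRS1 and YARS1 reached past a 2-fold decrease, to log2 fold changes of -1.11, -1.07 and -1.19. In 4 of 10 synthetases all treated arrays lay on one side of all control arrays, against 56.4% of all rows. With 10 transcripts, these counts say little of the synthetases as a set. The median log2 fold change of the 10 was -0.10, and that of all rows tested was 0.02. The median of the 10 was -0.17 without boric acid array 1 and -0.025 without control array 1.

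**Figure D1:**
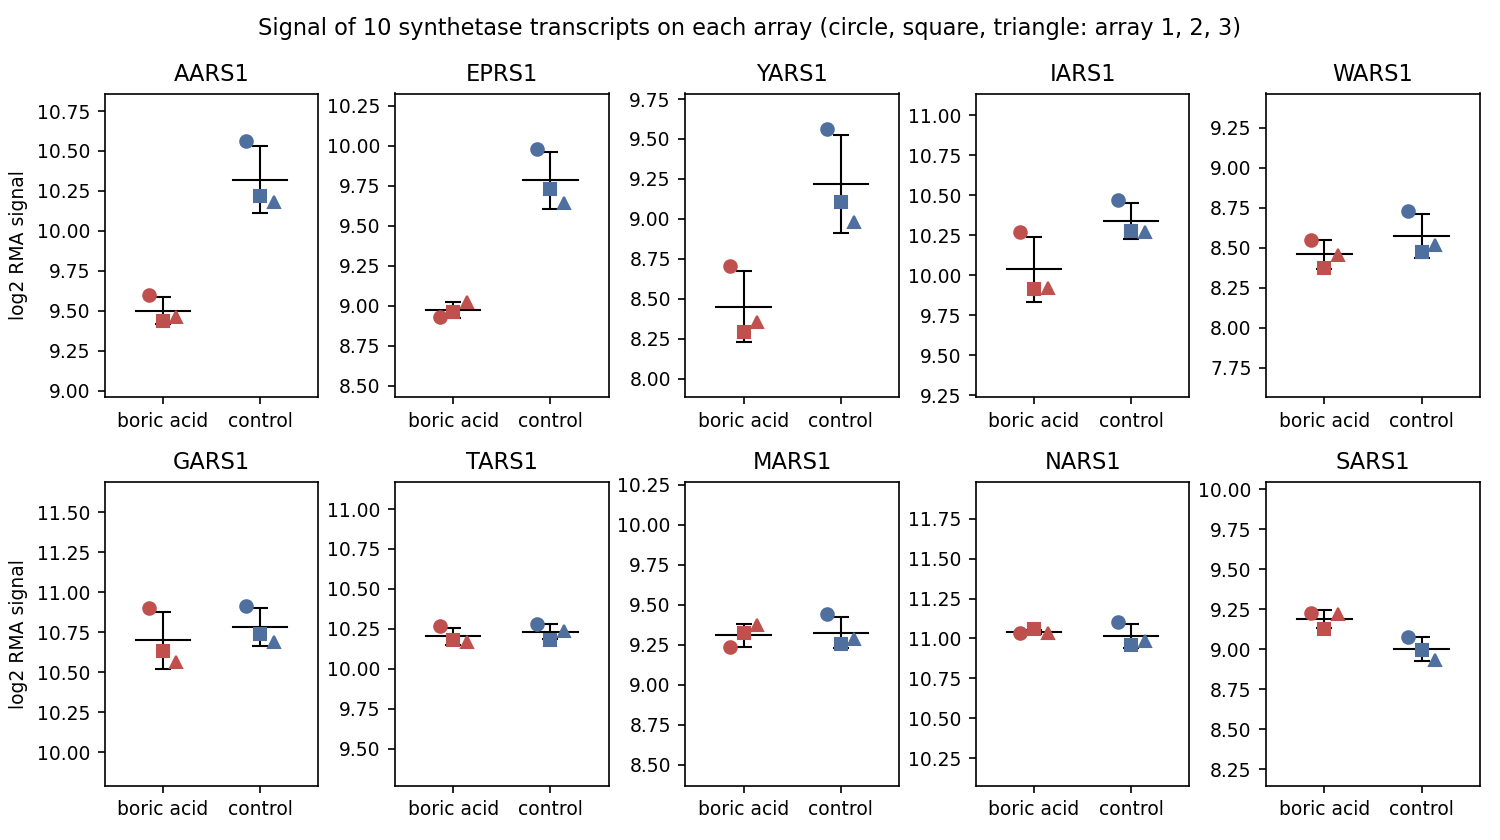
Log2 RMA signal (y axis) of each of the 10 transcripts on the 3 boric acid arrays (red, left) and the 3 control arrays (blue, right). Horizontal lines are group means and error bars are 1 SD (n = 3). All panels span the same number of log2 units, and levels cannot be compared between panels. The groups are apart by more than 0.5 log2 units in AARS1 and EPRS1, and the highest control value is array 1 in every panel.

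Among the transcripts that fell, AARS1 (ENST00000261772) encodes alanyl-tRNA synthetase, a class II enzyme that also edits wrongly charged tRNA. Its log2 signal was 9.60, 9.44 and 9.46 on boric acid arrays 1 to 3, against 10.56, 10.22 and 10.18 on control arrays 1 to 3. Every treated array was below every control array, by at least 0.59. The group means were 9.50 ± 0.08 in boric acid and 10.32 ± 0.21 in the controls (SD, n = 3 each). The log2 fold change was -0.82 with a standard error of 0.12, or 1.77-fold lower (limma, adjusted p = 0.0026).

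EPRS1 (ENST00000366923) encodes the bifunctional glutamyl-prolyl-tRNA synthetase, which joins a class I and a class II enzyme in 1 protein and belongs to the multisynthetase complex. It read 8.93, 8.96 and 9.02 on boric acid arrays 1 to 3, against 9.98, 9.73 and 9.64 on control arrays 1 to 3. The 3 treated arrays lay close together, and the gap to the nearest control array was 0.62, the widest of the 10 transcripts. The means were 8.97 ± 0.05 in boric acid and 9.78 ± 0.18 in the controls (SD, n = 3 each). The transcript fell by 0.81 on the log2 scale (standard error 0.11; limma, adjusted p = 0.0018), which is 1.76-fold lower.

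YARS1 (ENST00000373477), the class I tyrosyl-tRNA synthetase, showed the largest spread within both groups. Boric acid arrays 1 to 3 had signals of 8.71, 8.29 and 8.35, and control arrays 1 to 3 had 9.56, 9.11 and 8.98. The groups were apart by 0.27, with the first array of each group the highest in it. Means were 8.45 ± 0.22 in boric acid and 9.22 ± 0.30 in the controls (SD, n = 3 each). The log2 fold change was -0.77 with a standard error of 0.18, or 1.70-fold lower (limma, adjusted p = 0.013).

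Among all rows tested, 6.96% had a lower log2 fold change than AARS1, 7.12% a lower one than EPRS1 and 8.01% a lower one than YARS1. These 3 decreases therefore lay in the lower tail of the array-wide distribution but not at its end. With boric acid array 1 left out, the log2 fold changes were -0.87 for AARS1, -0.79 for EPRS1 and -0.89 for YARS1. With control array 1 left out they were -0.70, -0.71 and -0.59. All 3 stayed past limma's threshold in both cases, with adjusted p-values of at most 0.028.

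**Figure D2:**
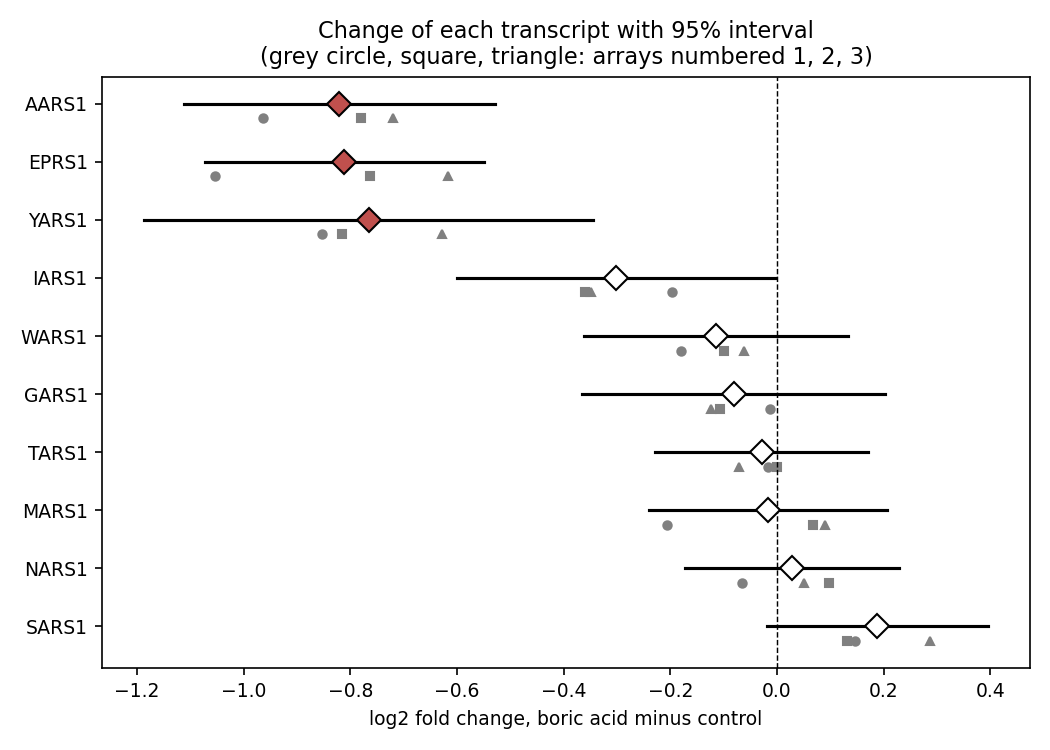
Log2 fold change, boric acid minus control (x axis), of the 10 transcripts in order of change. Diamonds are limma estimates, red where called and white where not, with 95% intervals as lines. Small grey symbols are the differences between the treated and the control array of the same number. AARS1, EPRS1 and YARS1 lie between -0.82 and -0.77, apart from the other 7, which lie between -0.30 and 0.19.

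IARS1 (ENST00000375643), the class I isoleucyl-tRNA synthetase of the multisynthetase complex, lay between these 3 and the rest. Its signals were 10.27, 9.92 and 9.92 on boric acid arrays 1 to 3, against 10.47, 10.28 and 10.27 on control arrays 1 to 3. The groups touched: boric acid array 1 was level with the lower controls, and boric acid arrays 2 and 3 were below all controls. The log2 fold change was -0.30 with a 95% interval of -0.60 to -0.003, and it did not pass (limma, adjusted p = 0.094). With the replicate number as a block it did pass (limma, adjusted p = 0.036, the same fold change), and 4 of 10 transcripts were then called lower, against 22.2% of all rows in that fit. Without boric acid array 1 it passed as well, with a log2 fold change of -0.42 (limma, adjusted p = 0.016). The differences between arrays 1, 2 and 3 of the same number were -0.20, -0.36 and -0.35, all below 0, but the call depended on array 1 and on the model.

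SARS1 (ENST00000234677) encodes the class II seryl-tRNA synthetase, which also charges the selenocysteine tRNA with serine. It was the only one of the 10 whose treated arrays all lay above the controls. Boric acid arrays 1 to 3 read 9.23, 9.13 and 9.22, and control arrays 1 to 3 read 9.08, 8.997 and 8.93. The gap between the groups was 0.05. The log2 fold change of 0.19 had a 95% interval of -0.02 to 0.39 and did not pass (limma, adjusted p = 0.13).

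The remaining 5 transcripts had log2 fold changes between -0.11 and 0.03, and their groups overlapped. NARS1 (ENST00000256854), the class II asparaginyl-tRNA synthetase, had nearly equal treated values. It read 11.03, 11.06 and 11.04 on boric acid arrays 1 to 3, against 11.10, 10.96 and 10.99 on control arrays 1 to 3. Its fold, boric acid over control, was 1.02 with a 95% interval of 0.89 to 1.17 (limma, adjusted p = 0.82).

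TARS1 (ENST00000265112), the class II threonyl-tRNA synthetase, read 10.27, 10.18 and 10.17 in boric acid, against 10.28, 10.18 and 10.24 in control cells (arrays 1 to 3 of each). Its fold was 0.98, with a 95% interval of 0.85 to 1.13 (limma, adjusted p = 0.81). MARS1 (ENST00000262027), the class I methionyl-tRNA synthetase that charges initiator and elongator tRNA and sits in the multisynthetase complex, read 9.23, 9.32 and 9.38 in boric acid, against 9.44, 9.25 and 9.29 in control cells. Its fold was 0.99 with a 95% interval of 0.85 to 1.15 (limma, adjusted p = 0.91). MARS1 differed in sign between the arrays: the same-number differences were -0.21, 0.07 and 0.09.

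GARS1 (ENST00000389266) encodes the class II glycyl-tRNA synthetase, which serves both cytosol and mitochondria from a single gene. Its signals were 10.90, 10.63 and 10.56 in boric acid, against 10.91, 10.74 and 10.69 in control cells (arrays 1 to 3 of each), and its fold was 0.95 with a 95% interval of 0.78 to 1.15 (limma, adjusted p = 0.62). WARS1 (ENST00000392882), the class I tryptophanyl-tRNA synthetase and a known interferon-gamma-induced gene, read 8.55, 8.37 and 8.46 in boric acid, against 8.73, 8.47 and 8.52 in control cells. Its fold was 0.92, with a 95% interval of 0.78 to 1.10 (limma, adjusted p = 0.42). Every same-number difference was below 0 in GARS1 and in WARS1, but the values of the groups overlapped. Missing the threshold does not show that a transcript was unchanged. Over the 7 transcripts not called, the 95% intervals of the fold ran from 0.66 (the lower bound of IARS1) to 1.31 (the upper bound of SARS1).

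The order of change held few steps that exceeded the spread between arrays. To compare neighbours in that order, the difference between the 2 signals was taken within each array and set between the groups. AARS1, EPRS1 and YARS1 could not be ordered. The decrease of EPRS1 was smaller than that of AARS1 by 0.01 (standard error 0.08). That of YARS1 was smaller than that of EPRS1 by 0.05 (standard error 0.17). In both steps the within-array differences of the groups overlapped. The step between YARS1 and IARS1 was 0.46 (standard error 0.11), and here the 3 treated arrays did not overlap the 3 control arrays. IARS1 and WARS1 were a step of 0.19 apart (standard error 0.08), and NARS1 and SARS1 0.16 (standard error 0.05). Neither of these steps overlapped, but both did so narrowly. For IARS1 and WARS1 the lowest treated difference was -1.72 and the highest control difference -1.74. The same values were -1.93 and -1.96 for NARS1 and SARS1, against 1.57 and 1.29 for YARS1 and IARS1. From WARS1 through GARS1, TARS1 and MARS1 to NARS1, the 4 steps were 0.01 to 0.05 and all overlapped. These comparisons are descriptions of members placed in order by the same values, and no p is given for them.

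**Figure D3:**
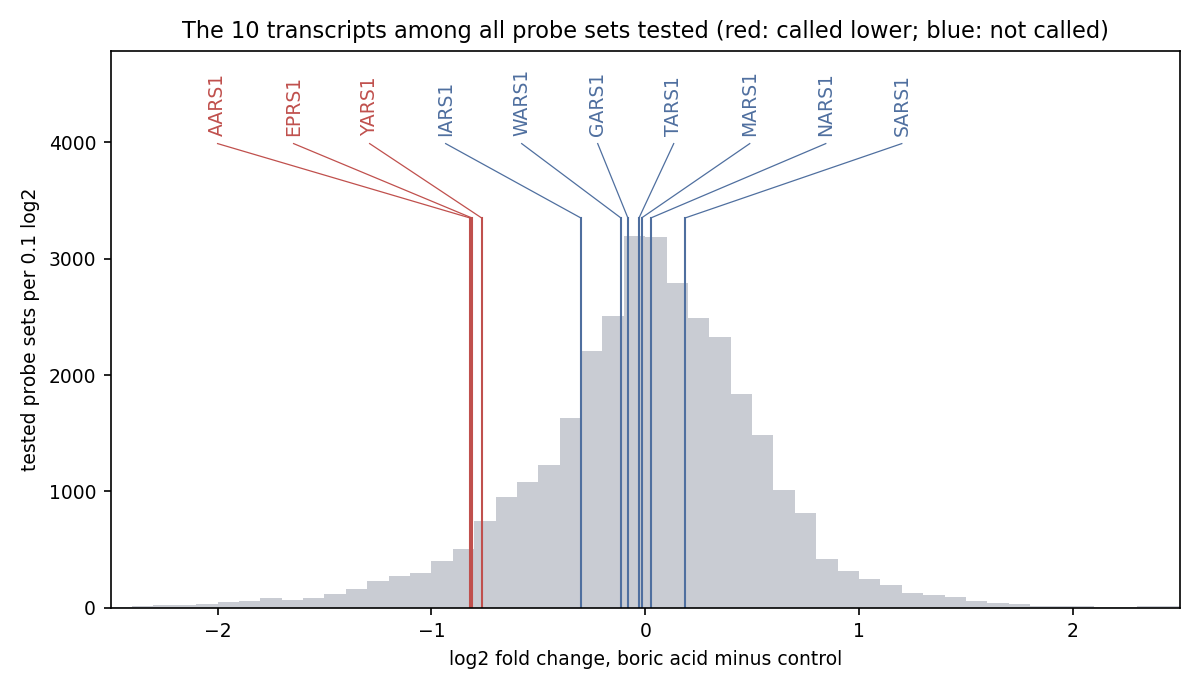
Number of tested probe sets per 0.1 log2 unit (y axis) by log2 fold change, boric acid minus control (x axis), drawn from -2.5 to 2.5. Vertical lines mark the 10 synthetase transcripts, red where called lower and blue where not called. The 3 red lines stand in the lower tail, where 6.96% to 8.01% of all tested rows had a lower value. The blue lines run from IARS1, with 23.9% of tested rows lower, to SARS1, with 64.2% lower.

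By catalytic class, the transcripts that fell were 1 of 4 class I enzymes (YARS1), 1 of 5 class II enzymes (AARS1) and EPRS1, which holds both classes. Of the 3 members of the multisynthetase complex, EPRS1 fell, IARS1 changed by -0.30 and MARS1 by -0.02 on the log2 scale, and of the 7 other enzymes AARS1 and YARS1 fell. The median log2 fold change was -0.21 over the class I enzymes and -0.03 over the class II enzymes, with EPRS1 in neither. It was -0.30 over the 3 complex members, which is the IARS1 value, and -0.08 over the 7 other enzymes. Of all rows tested, 19.2% were called lower, and with so few members these counts and medians are descriptions and were not tested.

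Control array 1 stood high for the whole set, and boric acid array 1 for most of it. Control array 1 was the highest control array for 10 of 10 synthetases, whereas it was the highest for 37.5% of all rows tested. Boric acid array 1 was the highest treated array for 7 of 10, against 39.5% of all rows tested. The median deviation from the group mean over the 10 transcripts was 0.08 on boric acid array 1 and 0.13 on control array 1. What set these arrays apart was not tested. Compared within numbers, the log2 differences of arrays 1, 2 and 3 were -0.96, -0.78 and -0.72 for AARS1, -1.05, -0.76 and -0.62 for EPRS1 and -0.85, -0.82 and -0.63 for YARS1. In these 3 transcripts every treated array lay below every control array, so any matching of arrays gives decreases. The signs therefore add nothing to that separation. The largest differences were those of the arrays numbered 1. With both arrays numbered 1 left out, a choice made after seeing the data, these 3 and IARS1 were called lower in limma's test, against 20.9% of all rows in that fit.

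The promoters were examined because many synthetase genes are known ATF4 targets. The core searched was TGATGNAA on either strand, the shared part of the composite element that ATF4 binds with C/EBP proteins. RefSeq windows (GRCh38.p14, 250 bases before to 50 after the gene's start) were held for 9 of the 10 genes, all but YARS1. The start in RefSeq need not be that of the measured transcript. The core was in 5 of 9 windows and in 3.62% of 35116 windows of the same length. It was searched because many such genes are known ATF4 targets, so this difference in share is no result of these arrays. The 5 sites are shown with 11 bases on either side, 5′ to 3′ on the gene's strand, with the core in capitals. Where the core lies on the opposite strand of the gene, its reverse complement is in capitals.
AARS1 at chr16:70289675-70289704, minus strand: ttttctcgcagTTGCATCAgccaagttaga
GARS1 at chr7:30594834-30594863, plus strand: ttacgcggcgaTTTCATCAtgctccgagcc
IARS1 at chr9:92293692-92293721, minus strand: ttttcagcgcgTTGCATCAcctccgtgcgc
NARS1 at chr18:57621804-57621833, minus strand: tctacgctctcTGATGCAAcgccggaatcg
MARS1 at chr12:57488053-57488082, plus strand: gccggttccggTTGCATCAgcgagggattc

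Read in the direction searched, the site was TGATGCAA in 4 genes and TGATGAAA in GARS1. The site begins 187 bases before the start in AARS1, 33 in GARS1, 13 in IARS1 and 4 in MARS1, and at base 15 after the start in NARS1. Their log2 fold changes ranged from -0.82 (AARS1) over -0.30 (IARS1), -0.08 (GARS1) and -0.02 (MARS1) to 0.03 (NARS1). The core was thus found in AARS1, which fell, and in IARS1, GARS1, MARS1 and NARS1, which were not called. The 4 windows without it belong to EPRS1, which fell, and to WARS1, TARS1 and SARS1, which were not called. A match to these letters is not evidence of binding, and its absence from this window says nothing of ATF4.

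The windows of AARS1 and EPRS1, the genes that fell and have one, are printed whole. The AARS1 window lies at chr16:70289457-70289756 on the minus strand and the EPRS1 window at chr1:220046456-220046755 on the minus strand (GRCh38.p14, RefSeq), 61.0% and 63.0% G or C. Capitals mark the core.
AARS1: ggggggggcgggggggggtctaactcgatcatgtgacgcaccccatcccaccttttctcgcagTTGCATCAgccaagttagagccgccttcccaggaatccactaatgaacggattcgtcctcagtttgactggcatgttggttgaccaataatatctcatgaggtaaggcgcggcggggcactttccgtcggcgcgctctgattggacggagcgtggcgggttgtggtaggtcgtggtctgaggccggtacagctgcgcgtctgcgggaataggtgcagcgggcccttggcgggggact
EPRS1: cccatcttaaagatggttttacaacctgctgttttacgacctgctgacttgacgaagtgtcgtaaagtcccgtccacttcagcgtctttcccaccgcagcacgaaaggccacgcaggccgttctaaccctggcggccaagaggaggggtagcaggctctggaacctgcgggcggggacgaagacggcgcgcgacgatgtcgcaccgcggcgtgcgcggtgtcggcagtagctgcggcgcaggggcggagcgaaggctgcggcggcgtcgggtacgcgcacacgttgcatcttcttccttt

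AARS1 holds 2 CCAAT boxes (CCAAT, either strand) and 1 GC box (GGGCGG, either strand), and EPRS1 holds 2 GC boxes and no CCAAT box. Over the 9 windows, a GC box was in 6 and a CCAAT box in 5, against 45.0% and 34.6% of all windows. The E-box CACGTG, a site of MYC and related factors that reads the same on both strands, was in 1 of 9 windows, that of IARS1, against 7.26% of all windows. The motifs searched did not overlap one another in these 9 windows.

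**Figure D4:**
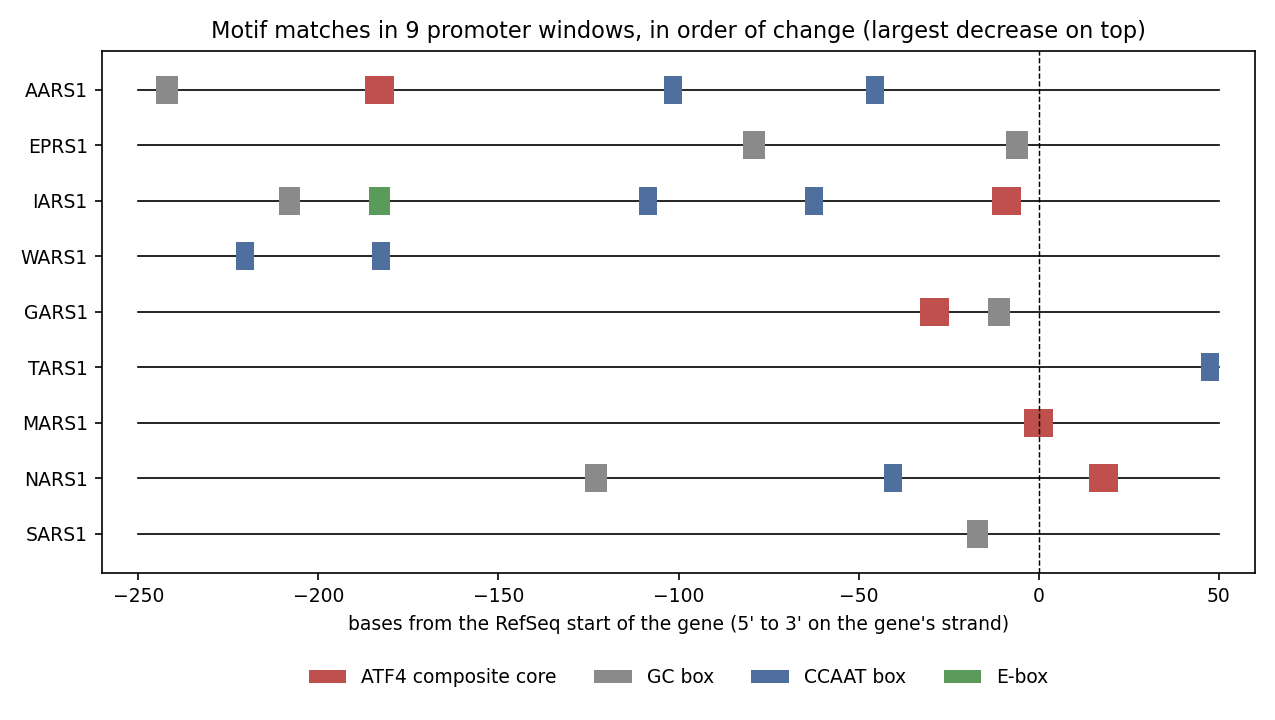
Positions of the searched motifs in the RefSeq windows of 9 genes (y axis, largest decrease on top), in bases from the start of the gene (x axis). The dashed line is the start, and colours name the motif. The ATF4 core is present in AARS1, IARS1, GARS1, MARS1 and NARS1, and in IARS1, MARS1 and NARS1 it lies within 22 bases of the start.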

How the data were processed

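The authors deposited 1 table of log2 values, made with RMA (no version stated), per the submitters' processing notes. The log2 scale was read from the values (2.56 to 13.78). For the probe set definitions and build, the sources used here name none. Background correction was not repeated, since no scanner files were used.

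Groups came from the sample titles. The values were used without further normalization in limma 3.58.1 (R 4.3.3, lmFit and eBayes, no covariate, two-sided, Benjamini-Hochberg over 33710 rows above the table median of 6.89 on at least 3 arrays). Array number limits precision: the median standard error was 0.12. The fit was tested on simulated data with independent errors, which lacked the differences between arrays described above. Alternatives changed the filter, scaling, variance prior, array weights, repeated rows, the replicate block and the arrays used.

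The comparison itself has no block. The fit with the replicate number as a block is given beside it where it changed a call. Deviations from group means correlated by 0.48, 0.17 and 0.20 for numbers 1, 2 and 3. Correlations between arrays of different numbers were not taken, so these values do not show that the numbers pair samples. The labels state no such pairing. Motifs were counted in RefSeq windows by exact match.

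All 10 members are named, changed or not. The members, lists and motifs were chosen with earlier results of these data known. Other cytosolic and mitochondrial synthetases and amino acid response genes were not analysed here, since no table used pairs their IDs with names.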

Additional observations from a re-analysis of the deposited data

How the results depend on the processing

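The decreases of AARS1, EPRS1 and YARS1 stayed past limma's threshold under all 16 alternatives, 15 planned and 1 added after seeing the data, with log2 fold changes of -0.89 to -0.70, -0.88 to -0.69 and -0.89 to -0.59. Their highest adjusted p-values were 0.012, 0.0090 and 0.045. IARS1 was called under 4 alternatives: array weights (-0.37, limma adjusted p = 0.012), the replicate block (-0.30, limma adjusted p = 0.036), without boric acid array 1 (-0.42) and without both arrays numbered 1 (-0.35). The replicate block changed no other call. The other 6 synthetases were called under none. Small changes turned sign: TARS1 was 0.013 with centred arrays and NARS1 -0.0062 with cyclic loess. MARS1 was 0.025 with centred arrays, 0.042 with array weights and 0.078 without both arrays numbered 1. Leaving out 1 array at a time gave -0.00022 to 0.070 for NARS1 and -0.053 to 0.040 for MARS1. The same left 3 to 4 synthetases called lower with a median log2 fold change of -0.17 (without boric acid array 1) to -0.025 (without control array 1), while 13.9% to 19.3% of all rows were called lower in those fits. The cause was not tested. WARS1 did not pass the filter at the 75th percentile and has no value there. Signal over background was not measured here.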
